A study of Mus musculus with 21 samples.

Results

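Mouse chromosomes 10 and 16 were examined for copy number in 21 liver tumours by array comparative genomic hybridization (aCGH), an assay in which labelled tumour DNA and labelled normal DNA compete for probes spread along the genome. The members were all non-control probes whose position in the files lay on either chromosome: 4588 on chromosome 10 and 3705 on chromosome 16, 8293 of 96579 probes in all. The pair was chosen by its high level in some of these same tumours, so each tumour's level is given below as a description with no test. All mice were C57BL/6 and had received CD-HFD, a diet rich in fat and lacking choline, for 12 months. In the anti-PD1 group an antibody against the inhibitory T cell receptor PD1 was added for 8 weeks; the CD-HFD group had the diet without it. The titles gave 12 tumours of 7 mice in the anti-PD1 group and 9 tumours of 7 mice in the CD-HFD group, reading the leading number as the mouse and L as the lesion, and 5 mice had given more than 1 lesion. The design text of the series counts 12 and 9 mice instead, 1 per tumour. All values per mouse, the mouse block and the comparisons of lesions below rest on the reading of the titles. No untreated liver of these mice was among the samples. The reference on every array was a pool that the labels call liver tails, and the tumour DNA came from formalin-fixed, paraffin-embedded tissue.

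Gains and losses of whole chromosomes are among the commonest changes in the genomes of liver cancers. A chromosome gained by every cell of a tumour adds a copy of each of its genes at once, so genes that drive division and genes that restrain it are gained together. Mouse chromosome 10 carries, among others, Mdm2, which encodes the ubiquitin ligase that degrades p53, the growth factor gene Igf1 and the interferon gene Ifng. Mouse chromosome 16 carries the co-stimulatory ligand genes Cd80 and Cd86, the inhibitory receptor gene Tigit and the cluster of interferon receptor genes Ifnar1, Ifnar2 and Ifngr2. A DNA array measures how much of a gene is present and not whether it is expressed. In bulk tumour DNA a gain in a few of the cells and a gain diluted by normal cells cannot be told apart, and both lie below the log2 ratio of 0.58 that 3 copies in place of 2 in every cell would give.

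The probes that carried the measurements were oligonucleotides of up to 60 bases. The 6 below were chosen after the values were seen, as 1 probe each for a growth gene, a liver gene, a receptor ligand gene, an interferon receptor gene, the most GC-rich window of chromosome 10 and the window of highest level on chromosome 16. They are examples of how far a single probe can depart from the level of its chromosome. Sequences are read from the array files, 5′ to 3′, on the plus strand, with G and C in capitals, because the GC content around a probe went with its level on most arrays.
Mdm2, coding exon, chr10:117133007-117133066 (mm9): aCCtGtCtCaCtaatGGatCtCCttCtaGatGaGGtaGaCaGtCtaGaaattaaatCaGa
Nr1h4, coding exon, chr10:88941130-88941189 (mm9): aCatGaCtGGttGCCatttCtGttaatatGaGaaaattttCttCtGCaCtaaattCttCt
Gng7, intron, chr10:80461887-80461945 (mm9): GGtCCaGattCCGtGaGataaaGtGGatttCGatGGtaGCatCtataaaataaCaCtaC
Cd86, coding exon, chr16:36618646-36618705 (mm9): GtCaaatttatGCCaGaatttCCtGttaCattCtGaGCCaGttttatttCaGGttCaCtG
Ifnar2, intron, chr16:91375023-91375082 (mm9): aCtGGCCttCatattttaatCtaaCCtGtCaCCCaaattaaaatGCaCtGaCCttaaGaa
Between genes, chr16:71160098-71160157 (mm9): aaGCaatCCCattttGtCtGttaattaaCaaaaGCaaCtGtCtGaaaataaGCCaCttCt

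Each of these probes matched the GRCm38 genome once, and exon and intron are those of that build's annotation. The Mdm2 probe had a log2 ratio of 1.08 in mouse 608 lesion 6 and 0.96 in mouse 2064 lesion 1, against a median of 0.57 over the 21 tumours. It also stood at 1.13 in mouse 612 lesion 2, the tumour with the lowest chromosome 10. The Nr1h4 probe, in the gene of the bile acid receptor FXR, had 1.19, 1.02 and 0.40 in those 3 tumours, with a median of 0.67. The Gng7 probe, in a G protein subunit gene, had a median of -0.44, and stood at -0.15 in mouse 608 lesion 6 and -0.07 in mouse 2064 lesion 1. The Cd86 probe had 1.22 in mouse 2064 lesion 1 and 0.84 in mouse 608 lesion 3, with a median of 0.76. The Ifnar2 probe had 0.34 and 0.62 in the same tumours, with a median of 0.17. The probe between genes read 2.06 and 2.11 there, and its median was 1.96, so it was high in carriers and non-carriers alike. These 6 chosen probes do not show how informative single probes are in general. The levels below are means over all probes of a chromosome.

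A chromosome's level is the mean log2 ratio of tumour over reference of its probes, after each array was centred on its median over all probes. A level of 0.2 or more is called a gain here and -0.2 or less a loss. By this rule chromosome 10 was gained in 2 of 21 tumours and chromosome 16 in 2 of 21, and neither was lost in any. Over the 19 autosomes and 21 tumours, 5.01% of levels were gains and 3.51% were losses. Mouse 2064 lesion 1, from the CD-HFD group, carried both gains. Mouse 608 lesion 6 carried chromosome 10 alone and mouse 608 lesion 3 carried chromosome 16 alone, both from the same anti-PD1 mouse. In the other 18 tumours neither chromosome reached the threshold, so the gains were not a general trait of these tumours.

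**Figure D1:**
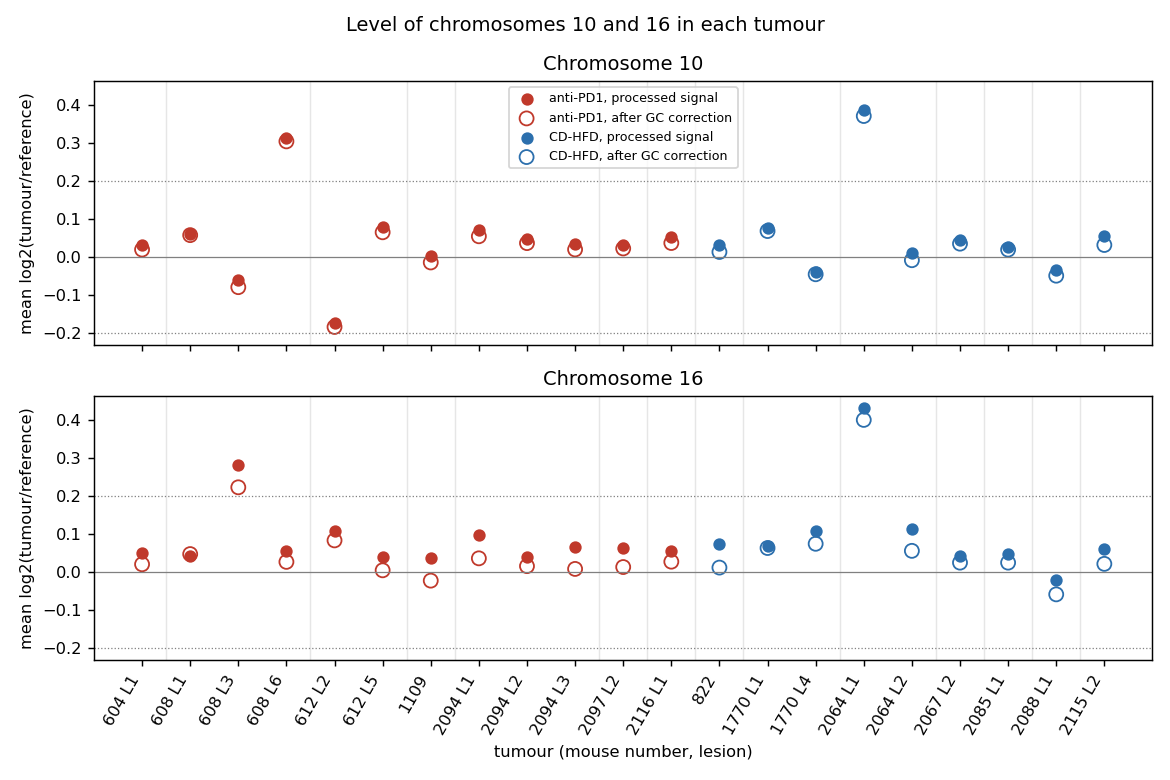
Level of chromosome 10 and of chromosome 16 (mean log2 ratio of tumour over reference) in each of the 21 tumours, with filled points for the processed signals, open points after GC correction and dotted lines at 0.2 and -0.2. Chromosome 10 passes the upper line in mouse 608 lesion 6 and mouse 2064 lesion 1, and chromosome 16 in mouse 2064 lesion 1 and mouse 608 lesion 3.

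Chromosome 10 stood at 0.388 in mouse 2064 lesion 1 and at 0.315 in mouse 608 lesion 6. As ratios of tumour over reference these are 1.31 and 1.24. The third highest level was 0.078, in mouse 612 lesion 5, so the gap below the carriers was wide. At the other end stood mouse 612 lesion 2 with -0.174, short of the threshold for a loss. Among the 12 anti-PD1 tumours the level ran from -0.174 through a median of 0.042 to 0.315. Among the 9 CD-HFD tumours it ran from -0.040 through 0.033 to 0.388, and the ranges of the groups overlapped. Chromosome 10 was not the highest chromosome of its carriers: it ranked 4th of 19 autosomes in mouse 2064 lesion 1 and 3rd in mouse 608 lesion 6, and 19th in mouse 612 lesion 2.

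Chromosome 16 stood at 0.432 in mouse 2064 lesion 1 and at 0.282 in mouse 608 lesion 3, ratios of 1.35 and 1.22. The third highest level was 0.113, in mouse 2064 lesion 2, and the lowest was -0.022, in mouse 2088 lesion 1. The anti-PD1 tumours ran from 0.035 through a median of 0.055 to 0.282. The CD-HFD tumours ran from -0.022 through 0.068 to 0.432, a range that held the whole anti-PD1 range. Chromosome 16 was the highest autosome of mouse 608 lesion 3 and the 2nd highest of mouse 2064 lesion 1.

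Probes present in both array designs allow each probe to be set against itself in the other tumours. Of 620 such probes on chromosome 10, 87.4% in mouse 608 lesion 6 and 85.2% in mouse 2064 lesion 1 lay above their own median over the 21 tumours. In mouse 612 lesion 2 the share was 13.1%. Of 448 on chromosome 16, 83.9% in mouse 2064 lesion 1 and 81.9% in mouse 608 lesion 3 lay above their own median, against 19.9% in mouse 2088 lesion 1. These shares rest on the same levels by which the chromosomes were chosen, and they describe how widely the shift was spread over the probes.

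Quality varied between arrays. The tumour channel was well above background at 68.7 to 100% of the chromosome 10 and 16 probes, with a median of 97.2%, and mouse 608 lesion 1 was the lowest array. Noise, the spread between neighbouring probes, was 0.409 to 0.680 on the log2 scale. Mouse 2064 lesion 1 was among the noisier arrays at 0.634, with 92.1% of these probes well above background. With a background correction that adds an offset (normexp), the levels of the carriers were lower. Chromosome 10 then stood at 0.203 in mouse 608 lesion 6 and 0.149 in mouse 2064 lesion 1, and chromosome 16 at 0.184 in mouse 2064 lesion 1 and 0.174 in mouse 608 lesion 3. Under that setting 1 tumour passed 0.2 for chromosome 10 and 0 for chromosome 16, although the same tumours remained the highest.

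The GC content of the surrounding sequence moved with the ratio on most arrays. The slope of the log2 ratio per 10 percentage points of GC in the 50 kb around a probe ran from -0.582 to 0.040, with a median of -0.318. Each array was therefore also corrected for the GC content in and around each probe. The gains changed little. Chromosome 10 stood at 0.371 in mouse 2064 lesion 1 and 0.305 in mouse 608 lesion 6 after the correction, and chromosome 16 at 0.40 in mouse 2064 lesion 1. Chromosome 16 in mouse 608 lesion 3 came down from 0.282 to 0.222, close to the threshold. After the correction 4.51% of autosomal levels were gains and 3.01% were losses, and the same 2 tumours passed 0.2 for each chromosome. The median tumour moved from 0.035 to 0.023 for chromosome 10 and from 0.061 to 0.024 for chromosome 16.

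**Figure D2:**
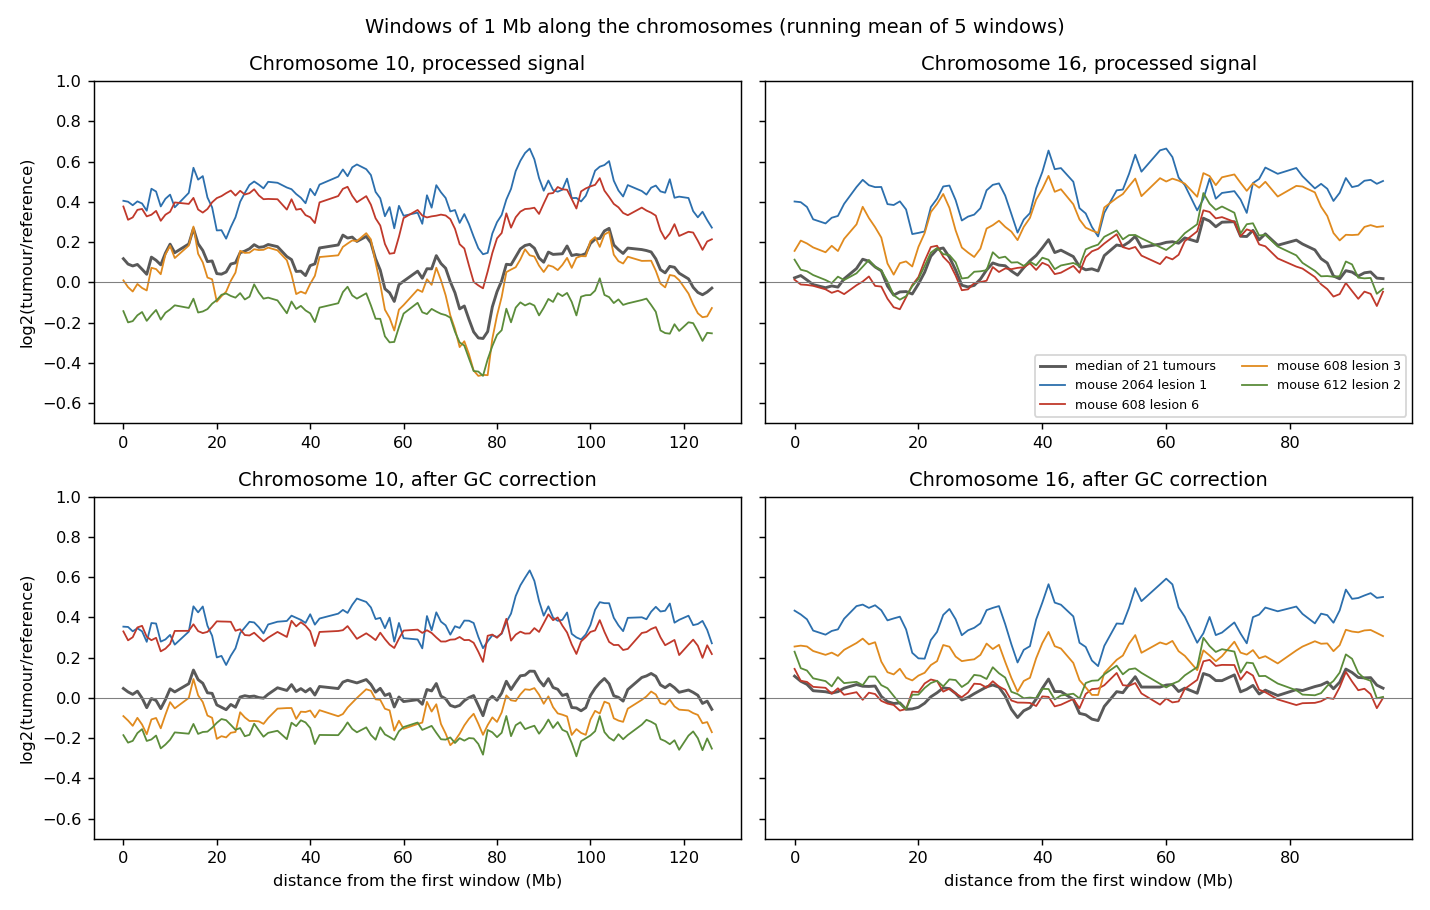
Running mean over 5 1-Mb windows of the log2 ratio along chromosome 10 and chromosome 16, against the distance from the first window in Mb, before and after GC correction, for the median of the 21 tumours and 4 single tumours. Before correction every profile dips in the GC-rich part of chromosome 10, and after it the carriers run above the median along the whole chromosome.

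The profiles showed where along each chromosome the level changed. Probes were joined into segments of like level, and a segment of 0.2 or more was called gained. Before GC correction chromosome 10 fell into 1 to 8 segments per tumour (median 3), and 3 tumours had a gained segment and 14 a lost one. The gained segment outside the carriers was that of mouse 2094 lesion 1, with a mean of 0.208 over 42.1% of the windows. In mouse 608 lesion 6 the segments had means of 0.351, -0.147 and 0.326, and in mouse 2064 lesion 1 of 0.408, -0.024 and 0.426. The low middle segment ended in both at chr10:81121309. It began at chr10:77180931 in mouse 608 lesion 6 and at chr10:79046464 in mouse 2064 lesion 1. In both it covered nearly all of the stretch chr10:79000001-81000000, whose 209 probes had 53.8% GC around them against 42.4% on the rest of the chromosome. That stretch stood below the rest in 21 of 21 tumours, by -0.085 to -0.818 with a median of -0.535. After GC correction the difference ran from -0.110 to 0.066, with a median of -0.015, and chromosome 10 was 1 segment in 21 of 21 tumours, gained in the 2 carriers and lost in 0.

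On chromosome 16 the stretch chr16:42000001-89000000 was GC-poor, with 39.1% around its 1409 probes against 44.3% elsewhere. It stood above the rest of the chromosome in 19 of 21 tumours, with differences from -0.077 to 0.322 and a median of 0.160. Before correction 9 tumours had a gained segment on chromosome 16: mouse 2064 lesion 1 over its full length and 8, among them mouse 608 lesion 3, over 44.0 to 56.0% of its windows. Those 8 had the steepest GC slopes of the series, -0.582 to -0.503 per 10 points, against -0.358 to 0.040 in the other 13. After correction the difference of the stretch was -0.108 to 0.063, with a median of 0.021, and the 2 carriers alone had a gained segment. In mouse 608 lesion 3 the segments of 0.185, 0.481 and 0.217 became 1 segment of 0.222. Chromosome 16 was then 1 segment in 20 of 21 tumours, the exception being mouse 612 lesion 5 with 3.

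After correction the gains had similar means in both parts of each chromosome. The proximal and distal parts of chromosome 10, split midway between its first and last probe, stood at 0.312 and 0.299 in mouse 608 lesion 6 and at 0.360 and 0.380 in mouse 2064 lesion 1. Those of chromosome 16 stood at 0.385 and 0.425 in mouse 2064 lesion 1 and at 0.205 and 0.252 in mouse 608 lesion 3. The share of 1-Mb windows above 0 was 99.1% and 98.2% for chromosome 10 in its carriers, and 94.0% and 88.1% for chromosome 16 in mouse 2064 lesion 1 and mouse 608 lesion 3. The SD over chromosome 10 windows was 0.133 in mouse 608 lesion 6 and 0.183 in mouse 2064 lesion 1 (median of all tumours 0.142). On chromosome 16 the SD was 0.220 in mouse 2064 lesion 1, the highest of all tumours, and 0.168 in mouse 608 lesion 3 (median 0.151). In mouse 612 lesion 2, 8.77% of chromosome 10 windows were above 0, and both parts were low, at -0.179 and -0.187. Its shift ran the other way along the full length, at a size below the threshold.

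Over all tumours, 11.3% of the windows of chromosome 10 and 23.1% of those of chromosome 16 lay in gained segments before correction. Over all autosomes the share was 9.63%. After correction it was 9.52% for each of the chromosomes and 4.62% over all autosomes. Both shares after correction came from 2 tumours of 21 gained over the full length. Across the 114 windows of chromosome 10 the median level and GC content had a Pearson r of -0.65 and a Spearman rho of -0.54, and across the 84 of chromosome 16 both were -0.60. After correction r was 0.10 and 0.17. The correction was itself fitted on GC content, so a weak relation after it was largely set in advance. These correlations describe windows of 1 set of arrays, which share probes and base composition.

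**Figure D3:**
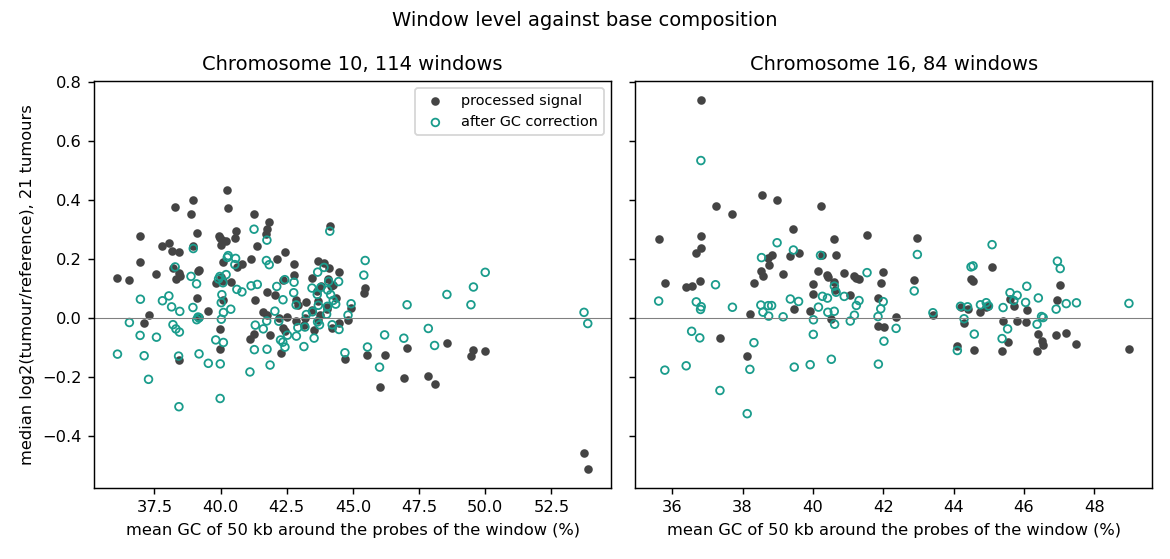
Median log2 ratio over the 21 tumours of each 1-Mb window of chromosome 10 and chromosome 16 against its GC content in percent, before and after GC correction. Before correction the GC-rich windows lie lowest (r -0.65 and -0.60), and after it the slope is nearly flat (r 0.10 and 0.17). The correction is itself a fit on GC content, so the flattening was largely set in advance.

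Single windows at the extremes are given next, before and after GC correction. The lowest window of chromosome 10, chr10:80000001-81000000, had a median of -0.511 before and -0.017 after it. It was the most GC-rich of the 114, with 53.9%, and held genes such as Map2k2 and Gadd45b. The highest window of chromosome 10, chr10:11000001-12000000 with Epm2a and Fbxo30, had medians of 0.436 and 0.206. Its level before correction went with the array design: the 8 tumours on slide 1, which had its own design, had a median of -0.038 and a highest value of 0.154, and the 13 tumours on slides 2 and 3 had a median of 0.533 and a lowest value of 0.307. On chromosome 16 the highest window, chr16:71000001-72000000, stood between 0.420 and 0.929 in all 21 tumours before correction, with a median of 0.741, and its median after it was 0.535. Of its 12 probes 1, the probe between genes printed above, had a median over 1. The lowest window, chr16:51000001-52000000, had a median of -0.127 before and -0.323 after correction. On slide 1 its median before correction was -0.050 and on slides 2 and 3 it was -0.246. Levels of small neighbourhoods are therefore compared below with the other tumours on the same design.

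Neither gain was found in another lesion of the same mouse. Mouse 2064 lesion 2 had levels of 0.012 for chromosome 10 and 0.113 for chromosome 16, against 0.388 and 0.432 in lesion 1. In mouse 608, chromosome 10 stood at 0.060 in lesion 1, -0.059 in lesion 3 and 0.315 in lesion 6, and chromosome 16 at 0.042, 0.282 and 0.055. In mouse 612, chromosome 10 stood at -0.174 in lesion 2 and 0.078 in lesion 5. In mouse 1770 it stood at 0.076 in lesion 1 and -0.040 in lesion 4. The 3 lesions of mouse 2094 had levels of 0.072, 0.049 and 0.035 for chromosome 10 and 0.096, 0.039 and 0.064 for chromosome 16, all near the median tumour. Lesions 1 and 6 of mouse 608 and the lesions of mice 2064 and 1770 were on the same slide as each other, whereas lesion 3 of mouse 608 was on another, with the other design. The lesions of mouse 612 were likewise on different slides and designs. Lesion 2 of mouse 2094 was on another slide than lesions 1 and 3, with the same design.

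The carriers differed in how much else was altered. After GC correction mouse 2064 lesion 1 had chromosomes 1, 10, 15 and 16 at or above 0.2 and 4, 6, 12 and 13 at or below -0.2. Mouse 608 lesion 6 had 1, 5, 10, 15 and 19 above and 9 and 12 below. Mouse 608 lesion 3 had 15 and 16 alone. Leaving out chromosomes 10 and 16, 38.2% of autosomal windows in mouse 2064 lesion 1, 33.9% in mouse 608 lesion 6 and 4.77% in mouse 608 lesion 3 lay in gained or lost segments. Chromosome 15, which carries Myc, was thus gained in all 3 carriers after correction, and in 4 of 21 tumours in all. Its level in mouse 608 lesion 3 was 0.15 before the correction and 0.21 after. Altered genomes without either gain also occurred: mouse 1770 lesion 1 had 29.4% of these windows altered and mouse 608 lesion 1 had 20.7%.

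**Figure D4:**
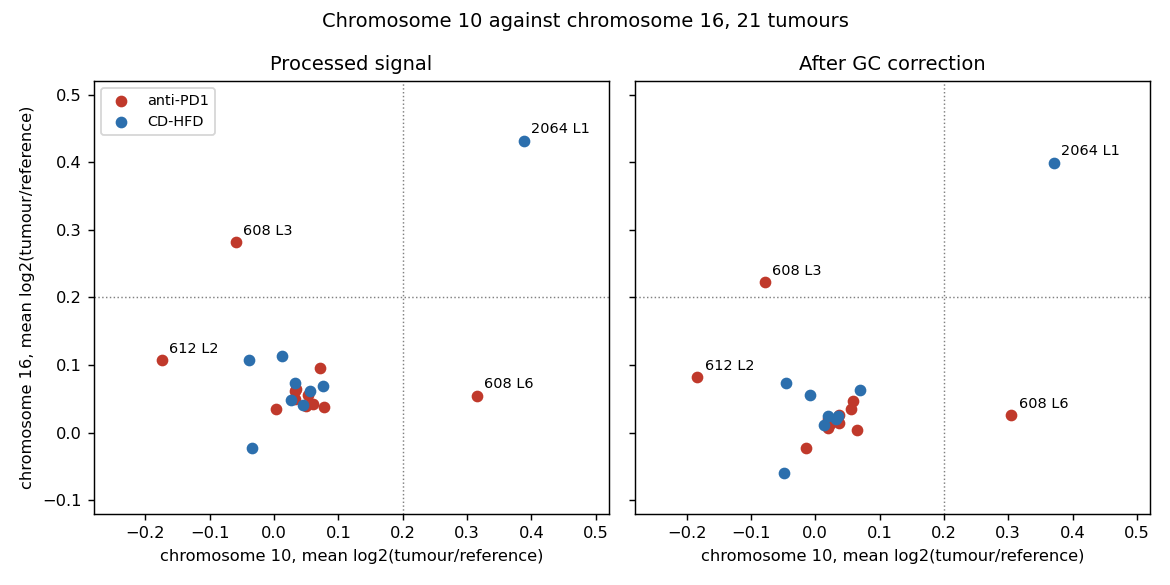
Level of chromosome 16 against level of chromosome 10 (mean log2 ratio) in each of the 21 tumours, for the processed signals and after GC correction. Mouse 2064 lesion 1 lies high on both axes, and mouse 608 lesion 6 and mouse 608 lesion 3 on 1 axis each. Mouse 612 lesion 2 lies low on the chromosome 10 axis, and the other tumours cluster near 0.

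One of the tumours had both chromosomes high, and the correlation over tumours depended on it. Pearson r of their levels was 0.41 over the 21 tumours and Spearman rho was -0.10, 31st in r of the 171 pairs of autosomes, whose r ran from -0.82 to 0.87 with a median of -0.09. Without mouse 2064 lesion 1 r was -0.31 and rho -0.27, 128th of 171. After GC correction r was 0.43 with that tumour and -0.28 without it, and with normexp 0.10 and -0.26. Leaving out all lesions of mouse 608 instead gave an r of 0.73. Within the 9 CD-HFD tumours, which hold mouse 2064 lesion 1, r was 0.92, and within the 12 anti-PD1 tumours it was -0.40. Within slide 2, which holds it, r was 0.97 over 8 tumours, and within slide 1 it was -0.58 over 8. Over 14 mouse means r was 0.86, and 0.59 over 13 without mouse 2064, but the mean of mouse 608 joins a lesion with chromosome 10 high and a lesion with chromosome 16 high. Of the 3 tumours with either gain, 1 had both. All points of these correlations share the reference DNA and the centring of each array, and no test was made of them.

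The genes named below come from lists of genes located on these chromosomes, grouped by function. A gene's level is the GC-corrected mean of all probes within 500 kb of its named probes, so neighbouring genes share probes and are not independent. On chromosome 10, 39 of 45 listed genes had a probe named for them, and on chromosome 16, 45 of 45. In mouse 608 lesion 6, 34 of 39 chromosome 10 genes were at or above 0.2, where 28.5% of all autosomal windows of that tumour were. In mouse 2064 lesion 1, 36 of 39 chromosome 10 genes and 42 of 45 chromosome 16 genes were, against 27.4% of its windows. In mouse 608 lesion 3, 27 of 45 chromosome 16 genes were, against 11.1% of its windows, and 0 of 39 chromosome 10 genes. Since the chromosomes were chosen by these levels, the counts describe how far the gain reached each gene and give no support to it. The counts per list below are parts of these totals, and no list was tested against the rest of its chromosome.

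Relative to tumours on the same array design the pattern was more even. In mouse 608 lesion 6 all 39 chromosome 10 genes were above the other 7 tumours of the design, by a median of 0.283 over their median, whereas 29.4% of all autosomal windows of that tumour were the highest of the design. In mouse 2064 lesion 1 all 39 chromosome 10 genes and 44 of 45 chromosome 16 genes were above the other 12 tumours, by medians of 0.358 and 0.373 over their median, and 28.9% of its windows were the highest. The exception was Trp63, for which mouse 608 lesion 3 was highest. That tumour was 1st or 2nd for 45 of 45 chromosome 16 genes, and 15.3% of its windows were. In mouse 612 lesion 2, 38 of 39 chromosome 10 genes were the lowest of the design, by a median of -0.221, and 14.9% of its windows were. By the fixed threshold 13 of its 39 were at or below -0.2, where 8.54% of its windows were.

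**Figure D5:**
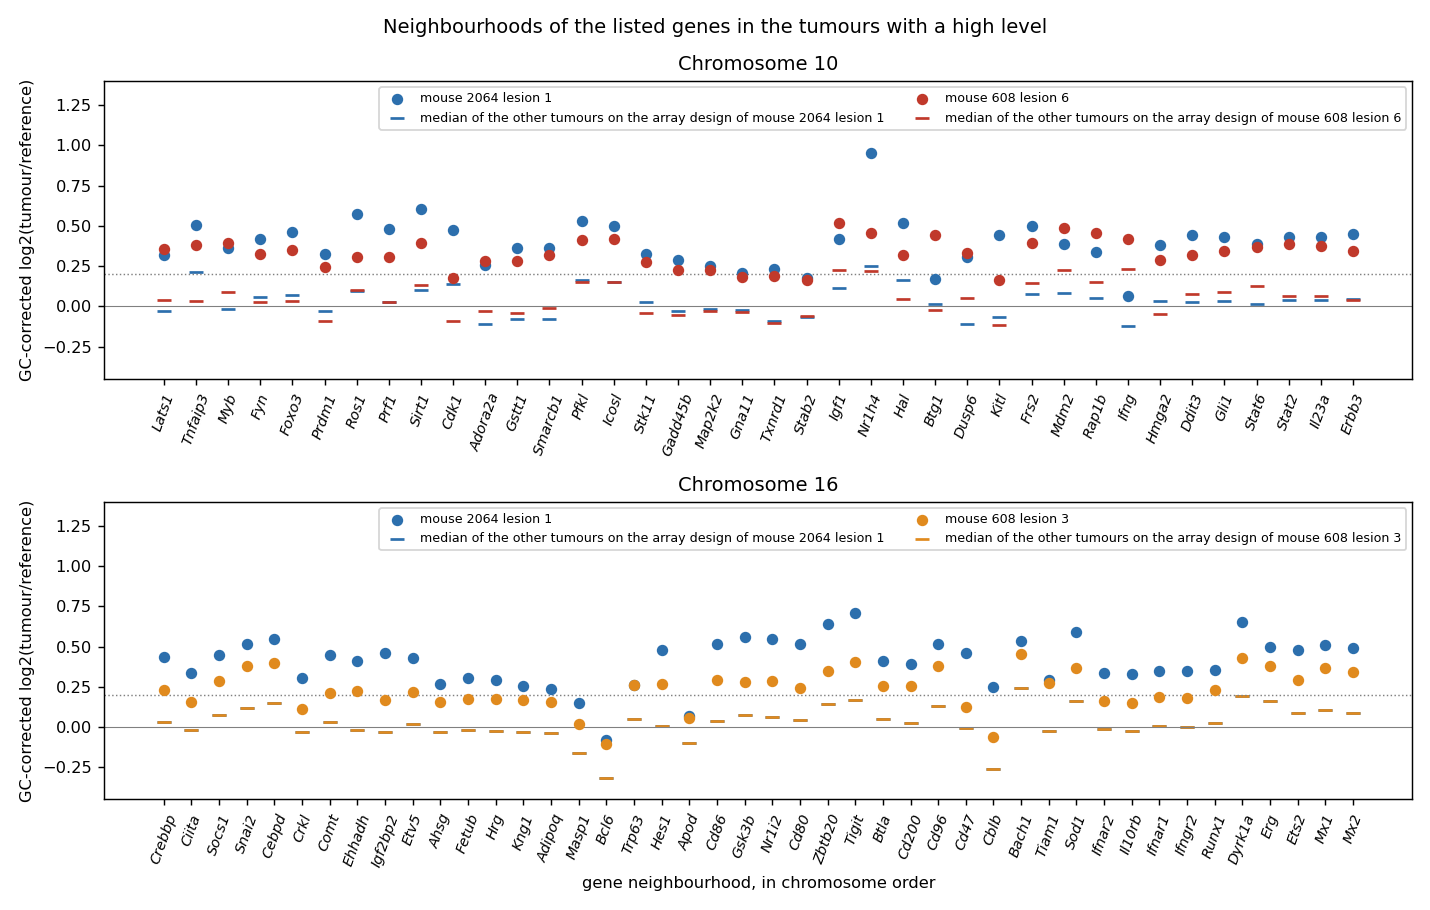
GC-corrected log2 ratio of the neighbourhoods of listed genes, for chromosome 10 in mouse 608 lesion 6 and mouse 2064 lesion 1 and for chromosome 16 in mouse 2064 lesion 1 and mouse 608 lesion 3, with dashes at the median of the other tumours on the same array design. Points lie above their dashes in every list, the dashes of both tumours nearly coincide on chromosome 16, and Bcl6 and Cblb have the lowest of them.

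Among growth and cell cycle genes of chromosome 10, 11 of 14 in mouse 608 lesion 6 and 14 of 14 in mouse 2064 lesion 1 were at or above 0.2. Of all autosomal windows of these tumours, 28.5% and 27.4% were. Mdm2 stood at 0.49 and 0.39 in the 2 tumours, with medians of 0.23 and 0.08 in the other tumours of each design. Igf1, which encodes a liver-made growth factor, stood at 0.52 and 0.42, with medians of 0.23 and 0.12 in the other tumours. The Igf1 neighbourhood was at or above 0.2 in 7 of 21 tumours. Myb, a transcription factor gene of dividing progenitor cells, stood at 0.40 and 0.37. The cell cycle kinase gene Cdk1 stood at 0.17 and 0.47, and its neighbourhood was low in the first design, with a median of -0.09. The receptor kinase gene Ros1 stood at 0.31 and 0.58. The kinase gene Map2k2, which lies in the GC-rich stretch, stood at 0.23 and 0.25 after correction, and before it was at or below -0.2 in 18 of 21 tumours.

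Of the genes that restrain growth or respond to stress, 11 of 11 in mouse 608 lesion 6 and 10 of 11 in mouse 2064 lesion 1 were at or above 0.2. The shares of all autosomal windows were again 28.5% and 27.4%. Foxo3, a transcription factor gene that opposes growth signalling, stood at 0.35 and 0.46. The deacetylase gene Sirt1 stood at 0.39 and 0.61. Stk11, which encodes the kinase LKB1, stood at 0.28 and 0.33, with medians of -0.04 and 0.02 in the other tumours. Tnfaip3, which encodes the NF-kappaB inhibitor A20, stood at 0.38 and 0.51. Btg1 stood at 0.45 and 0.17, the 1 gene of this list below 0.2 in mouse 2064 lesion 1.

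Liver genes of chromosome 10 were at or above 0.2 for 5 of 7 in mouse 608 lesion 6 and 6 of 7 in mouse 2064 lesion 1. Against these and the next counts stand 28.5% and 27.4% of all autosomal windows. Nr1h4 stood at 0.46 and 0.95, with medians of 0.22 and 0.25 in the other tumours. Its neighbourhood was at or above 0.2 in 15 of 21 tumours. Stab2, a scavenger receptor gene of liver sinusoids, stood at 0.17 and 0.18. Among lymphocyte genes 7 of 7 and 6 of 7 were at or above 0.2. Prf1, which encodes perforin, stood at 0.31 and 0.48, and Stat6, which encodes a signalling protein of interleukin-4, at 0.37 and 0.39. Ifng stood at 0.42 and 0.06, with medians of 0.23 and -0.12 in the other tumours, and it was above all of them in both.

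On chromosome 16 all 8 genes of co-stimulatory and inhibitory receptors and ligands were at or above 0.2 in mouse 2064 lesion 1 and 6 of 8 in mouse 608 lesion 3. Of all autosomal windows of these tumours, 27.4% and 11.1% were. Tigit stood at 0.71 and 0.41, with a median of 0.17 in the other tumours. Cd80 stood at 0.52 and 0.25 and Cd86 at 0.51 and 0.29, each with a median of 0.04 elsewhere. Cd96, a receptor gene of T and NK cells, stood at 0.52 and 0.38, and Btla, another inhibitory receptor gene, at 0.41 and 0.25. Cd47, which encodes a signal that restrains phagocytes, stood at 0.46 and 0.12. Cblb, which encodes a ubiquitin ligase that restrains T cells, stood at 0.25 and -0.06, above a median of -0.26.

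Of the interferon receptor and effector genes 8 of 8 in mouse 2064 lesion 1 and 3 of 8 in mouse 608 lesion 3 were at or above 0.2. Against these and the next counts stand 27.4% and 11.1% of all autosomal windows. Ifnar1, a subunit of the type I interferon receptor, stood at 0.35 and 0.19, and Ifngr2, a subunit of the interferon-gamma receptor, at 0.35 and 0.18. Their neighbourhoods overlap. Mx1, an antiviral effector gene, stood at 0.51 and 0.37. Among growth and transcription genes the counts were 16 of 17 and 13 of 17. The kinase gene Dyrk1a stood at 0.65 and 0.43 and the transcription factor gene Runx1 at 0.36 and 0.23. Bcl6, a transcriptional repressor gene, stood at -0.08 and -0.10, above a median of -0.32 in the other tumours of the design. Of the genes listed under liver secreted proteins and metabolism, 10 of 12 and 5 of 12 were at or above 0.2. Whether each is expressed in liver was not tested. The xenobiotic receptor gene Nr1i2 stood at 0.55 and 0.29, Zbtb20 at 0.64 and 0.35, and the superoxide dismutase gene Sod1 at 0.59 and 0.37. Ahsg, which encodes the plasma protein fetuin-A, stood at 0.27 and 0.15, and the apolipoprotein gene Apod at 0.07 and 0.05, above a median of -0.10.

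The design asked whether tumours of anti-PD1-treated mice and of mice on CD-HFD alone differed in copy number. Neither chromosome differed beyond the spread between tumours. The anti-PD1 tumours had a mean chromosome 10 level of 0.041 ± 0.111 (SD, n = 12) and the CD-HFD tumours 0.063 ± 0.128 (SD, n = 9). With limma and the mouse as a random block, the difference was -0.021 with a 95% confidence interval from -0.120 to 0.077 (adjusted p = 0.908 over 20 chromosomes). For chromosome 16 the means were 0.077 ± 0.068 and 0.102 ± 0.130, and the difference was -0.025 with an interval from -0.113 to 0.062 (limma, adjusted p = 0.908). Of the 20 chromosomes 0 passed an adjusted p of 0.05, 0% of those tested. As means of mice, chromosome 10 stood at 0.033 ± 0.047 and 0.049 ± 0.072 and chromosome 16 at 0.067 ± 0.029 and 0.080 ± 0.092 (SD, n = 7 mice each). Without mouse 2064 lesion 1 both differences changed sign, to 0.020 and 0.016. Within slide 1 the difference of mouse means was -0.015 for chromosome 10 and 0.010 for chromosome 16 (exact permutation test, two-sided, p = 0.9 and 0.5). Within slide 2 it was -0.028 and -0.038 (exact permutation test, p = 0.7 and 0.9), where 3 mice against 3 cannot go below 0.1. Slide 3 held 1 CD-HFD tumour, and the differences there were -0.015 and 0.025, with no test.

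In the limma fit of 1-Mb windows 0 of 198 windows on these chromosomes passed an adjusted p of 0.05, and 0 passed an unadjusted p of 0.05. Over all 2223 windows the counts were 0 (0%) and 20 (0.9%). The difference between groups had a median of -0.012 over the 114 windows of chromosome 10 and of -0.025 over the 84 of chromosome 16, where anti-PD1 tumours were higher in 43 and 18 windows. That direction was not stable. Without mouse 2064 lesion 1 the higher windows went from 61 of the 198 to 148, and the median difference from -0.017 to 0.025. With mouse 612 left out the count was 99 and the median difference -5.3e-05, and with array weights the count was 131. The smallest p on chromosome 10 was that of chr10:31000001-32000000, with Hddc2 and Tpd52l1, at a difference of -0.089 with a standard error of 0.064 (limma, p = 0.175, adjusted p = 0.999). On chromosome 16 it was that of chr16:94000001-95000000, with Dyrk1a, Sim2 and Ttc3, at -0.082 with a standard error of 0.058 (limma, p = 0.165, adjusted p = 0.999). None of the windows of the 84 listed genes had an unadjusted p below 0.05 in that fit. A p that misses the threshold does not show that the groups were equal. These p-values set each difference against the spread between these tumours, with the mouse as block.

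The share of chromosome 10 in gained segments, averaged per mouse, was 6.60 ± 12.4% in 7 anti-PD1 mice and 7.02 ± 18.6% in 7 CD-HFD mice. That of chromosome 16 was 19.4 ± 20.2% and 21.2 ± 30.5%. The differences of -0.418 and -1.73 percentage points had an exact permutation p of 1 and 0.939 (two-sided, adjusted p = 1 for both), over 3432 assignments of the mice. Neither sign was stable: the differences were 6.60 and 1.42 points without mouse 2064 lesion 1, and 4.68 and 2.10 with normexp. After GC correction the shares were 4.76% and 7.14% on each chromosome (exact permutation p = 1). They came from 1 mouse in each group, since mouse 608 gave a carrier of each gain and mouse 2064 gave the carrier of both. Gains were few, and no difference in how often they occur was found. How large a difference could have been found was not tested.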

How the data were processed

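The authors hybridised tumour DNA (Cy3) against a pooled reference (Cy5) in the same dye orientation on 2-colour Agilent arrays, and Agilent Feature Extraction 11.0.1.1 gave the deposited intensity values, which are background-subtracted and dye-normalized. The authors also deposited a table of log2 ratios after loess, used here as an alternative. Positions are mm9, per the file headers. No further method for this assay is given in the sources used here. Slide 1 (8 tumours) had another array design than slides 2 and 3 (8 and 5), and 1071 of the 8293 probes were common to both. The columns left out numbered 0.

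From the intensities, log2 of tumour over reference was computed per probe, flagged spots and control probes were dropped, repeated probes were averaged, and each array was centred on its median. Means were taken per chromosome, per 1-Mb window with at least 5 probes on each design, and per gene neighbourhood. Segments came from least-squares optimal partitioning with at least 10 probes each, where every added break cost 3 times the variance of the noise multiplied by the log of the number of probes. For GC correction, each array was regressed on GC content, both within a probe and over the 50 kb that surround it in GRCm38, where 8286 of the 8293 probes matched once and 0 on another chromosome. Groups were compared with limma 3.58.1 in R 4.3.3, duplicateCorrelation with the mouse as block, and Benjamini-Hochberg adjustment over all chromosomes or windows, or by exact permutation of mice. The segmentation and the limma fit of windows were tested on simulated data of normally distributed noise, which held no GC trend.

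Named genes came from the functional lists in the text, plus the highest, the lowest and the smallest-p window of each chromosome. Some listed genes enter the counts but are not reported here by name or drawn. The chromosomes, the lists and the tests were chosen with earlier results of these data known. Alternatives were the loess ratios, normexp with an offset of 50, bright probes, common probes, GC correction, medians, other treatments of mouse and slide, array weights, other segment settings, and leaving out each mouse. Leaving out mouse 2064 lesion 1, the counts of tumours at 0.2 under each setting, the slide block on GC-corrected values and the comparison within a design were added after seeing the data. The number of arrays limits the precision.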

Additional observations from a re-analysis of the deposited data

Results flagged for a closer look

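Within a group of 4 to 10 mice or tumours, a highest or lowest value was singled out when its gap to the next value was a large part of the group's whole range (Dixon's 95% limit). Chance alone singles out a value in about 1 in 20 groups. Here the chromosomes were chosen by high levels in these same tumours and the groups share tumours, so the values below describe the carriers and are no evidence for them. Among CD-HFD tumours mouse 2064 lesion 1 was the one singled out, for chromosome 10 at 0.388 and for chromosome 16 at 0.432. Through that lesion mouse 2064 was also singled out among CD-HFD mice, with mean levels of 0.20 for chromosome 10, 0.182 for chromosome 10 after GC correction and 0.272 for chromosome 16. Among anti-PD1 mice, mouse 608 was singled out for chromosome 16 at 0.126, the mean of 3 lesions of which lesion 3 was the carrier. For chromosome 16 neither mouse passed the limit after GC correction.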

How the results depend on the processing

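In no alternative run did a chromosome or a window of these chromosomes pass an adjusted p of 0.05 between the groups (limma, chromosomes 0.881 to 0.995, and down to 0.511 when a mouse was left out). The sign was not stable. For the chromosome 10 level it turned with array weights (0.00016) and without mouse 2064 lesion 1 (0.0200), and for chromosome 16 likewise (0.00279 and 0.0162). The difference in gained share of chromosome 10 turned with normexp (4.68 percentage points), a threshold of 0.1 (13.5), every tumour as independent (0.634) and without mouse 2064 lesion 1 (6.60). That of chromosome 16 turned with normexp (2.10), a doubled penalty (2.61) and without that tumour (1.42). The correlation of the chromosomes was -0.308 without it, and 0.098 with normexp and that tumour kept. The tumours at 0.2 or above were 1 for chromosome 10 and 0 for chromosome 16 with normexp, and 1 each without mouse 2064 lesion 1, against 2 each otherwise. Leaving out each mouse gave differences of -0.0431 to 0.0186 for chromosome 10, -0.0426 to 0.0235 for chromosome 16, -4.68 to 6.60 and -5.83 to 7.74 points for their gained shares, and correlations of -0.304 to 0.731, and the windows passing stayed at 0. The positive end came without mouse 2064 for the differences, and the correlation was -0.304 without it and 0.731 without mouse 608. With the loess ratios mouse 612 lesion 2 reached -0.232 on chromosome 10, a loss by the threshold. With array weights 23 of the 198 windows had an unadjusted p below 0.05 (limma, smallest adjusted p 0.312), as had 310 of all 2223 windows, a larger share. Anti-PD1 tumours were higher in 61 of the 198 windows, but in 99 without mouse 612, 131 with array weights and 148 without mouse 2064 lesion 1. Why settings differed was not tested. No paired analysis was possible because no mouse gave tumours to both groups. The arrays of mouse 608 lesion 1 and mouse 1770 lesion 1 were the dimmest, with 68.7% and 85.8% of these chromosomes' probes well above background. Whether this affected the precision of their levels was not tested.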
